A study of Mus musculus with 2 samples.

Results

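The genes described here are the ligands and receptors of axon guidance: semaphorins and plexins, Slits and Robos, netrins and Unc5 receptors, and ephrins and Eph receptors. They were taken by symbol from the RefSeq accession of each array probe, which gave 68 genes with 85 probes among 20658 named genes (39423 gene probes, named or not). Of the 68, 64 were well above background on both arrays, 1 (Epha10) on the WT array alone, 0 on the array labelled Sirpa-/- alone and 3 (Sema3d, Sema4f and Unc5cl) on neither. The symbol rule also took in Plxna4os1, a non-coding transcript antisense to Plxna4, and Unc5cl, which is related to the Unc5 receptors but is not a netrin receptor.

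RNA came from glomeruli, the filtering tufts of the kidney, and the mice were 8-month-old males in 2 groups: mice with Sirpa deleted in podocytes, labelled Sirpa-/-, and WT mice. Both groups had received 0.5 ml of pristane, an oil that brings on lupus-like autoimmunity, in 1 injection into the peritoneum, and were followed for 4 months, so both were models of lupus nephritis and no untreated mice are part of the comparison. Each group had 1 Agilent one-colour array. The sources used here do not give the driver of the podocyte deletion, the strain or the number of animals behind each array. The treatment description speaks of isolated podocytes, whereas the sample labels and the extraction speak of glomeruli. Of 12 podocyte, 12 glomerular endothelial and 10 mesangial and smooth muscle markers, all were well above background on both arrays.

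Axon guidance cues are signals that steer growing nerve fibres, and vessels and epithelia use the same molecules. Semaphorins act through plexins, with neuropilins as partners for the secreted class 3. Slits act through Robo receptors, netrins through Dcc, neogenin and the Unc5 receptors. GPI-anchored ephrin-A ligands mostly bind EphA kinases, and transmembrane ephrin-B ligands mostly bind EphB kinases, with signals running into both cells. In the glomerulus, Robo2 and ephrin-B1 are known at the podocyte slit diaphragm, and class 3 semaphorins are known to act on podocytes and on endothelium.

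Since each group has 1 array, nothing is replicated and no test was run, and each difference below is one between these 2 arrays. Signals are Agilent processed fluorescence, given with the error that the scanner software estimates (a median of 10.1% of the signal on both arrays). Each difference is the log2 signal of the array labelled Sirpa-/- less that of the WT array, after scaling each to its 75th percentile, a signal of 1109 on the array labelled Sirpa-/- and 1158 on the WT array. Among 360 probes spotted 10 times, the difference between the arrays at one spot position had a median SD of 0.07 over positions. That SD was 0.31 for the 102 probes with a mean signal under 100 and 0.06 for the 258 brighter ones. This spread is technical only. Different probes differ in brightness for the same amount of RNA, so signals are compared within a probe and never between genes. Signals, and sums of signals over a list, are given before scaling. Such a sum is weighted toward the brightest probes of its list.

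The only probe for Sirpa itself gave 17315 on the array labelled Sirpa-/- and 11624 on the WT array, 1.56-fold higher where the label says the gene is deleted. Whether this probe lies in the deleted part is not known, and the labels place the deletion in podocytes alone. A direction is therefore given for the array as labelled, not for the deletion. Other markers differed between the arrays too, and their part in the results below was not tested. On the array labelled Sirpa-/-, all 10 B cell markers were higher (median log2 difference 1.29, summed signal 4209 against 1269 on the WT array), as were 6 of 7 erythroid markers (range -0.66 to 1.69, summed signal 126943 against 60503 on the WT array) and 10 of 12 markers of tubule beyond the proximal segment (median 0.55, 19564 against WT 17790). All 12 cell cycle genes were lower (median -0.98, 5244 against WT 10455), as were all 10 proximal tubule markers (median -0.45, 19456 against WT 27796). Medians were 0.09 for podocyte, -0.08 for glomerular endothelial, 0.04 for mesangial and smooth muscle, and -0.13 for Schwann cell and neuron markers. Of the 12 Schwann cell and neuron markers, 3 were at least 1.5-fold lower and 1 higher. They ranged from -1.44 for Stmn2 (labelled Sirpa-/- 657.0, WT 1866) to 0.62 for Uchl1. In RNA of whole glomeruli, fewer cells of a type and less RNA per cell cannot be told apart.

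As a group, the axon guidance genes were centred near 0. Their median log2 difference was -0.01 over 64 genes, with quartiles of -0.19 and 0.16. For all 18239 genes measured on both arrays the median was 0.00 with quartiles of -0.15 and 0.15. Past 2-fold, Slit2 was the single member higher on the array labelled Sirpa-/- (1.56% of the 64, against 1.56% of all genes), and Ntn1 the single member lower (1.56%, against 1.67% of all genes). Among all genes past 2-fold, 48.4% were higher, and 58.9% when the background was corrected with the normexp method. At 1.5-fold, 5 members were higher (7.81%, against 4.35% of all genes) and 4 lower (6.25%, against 5.27%), and 55 of the 64 lay within 1.5-fold. At 2-fold the shares lay near those of all genes, and at 1.5-fold they were somewhat above.

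**Figure D1:**
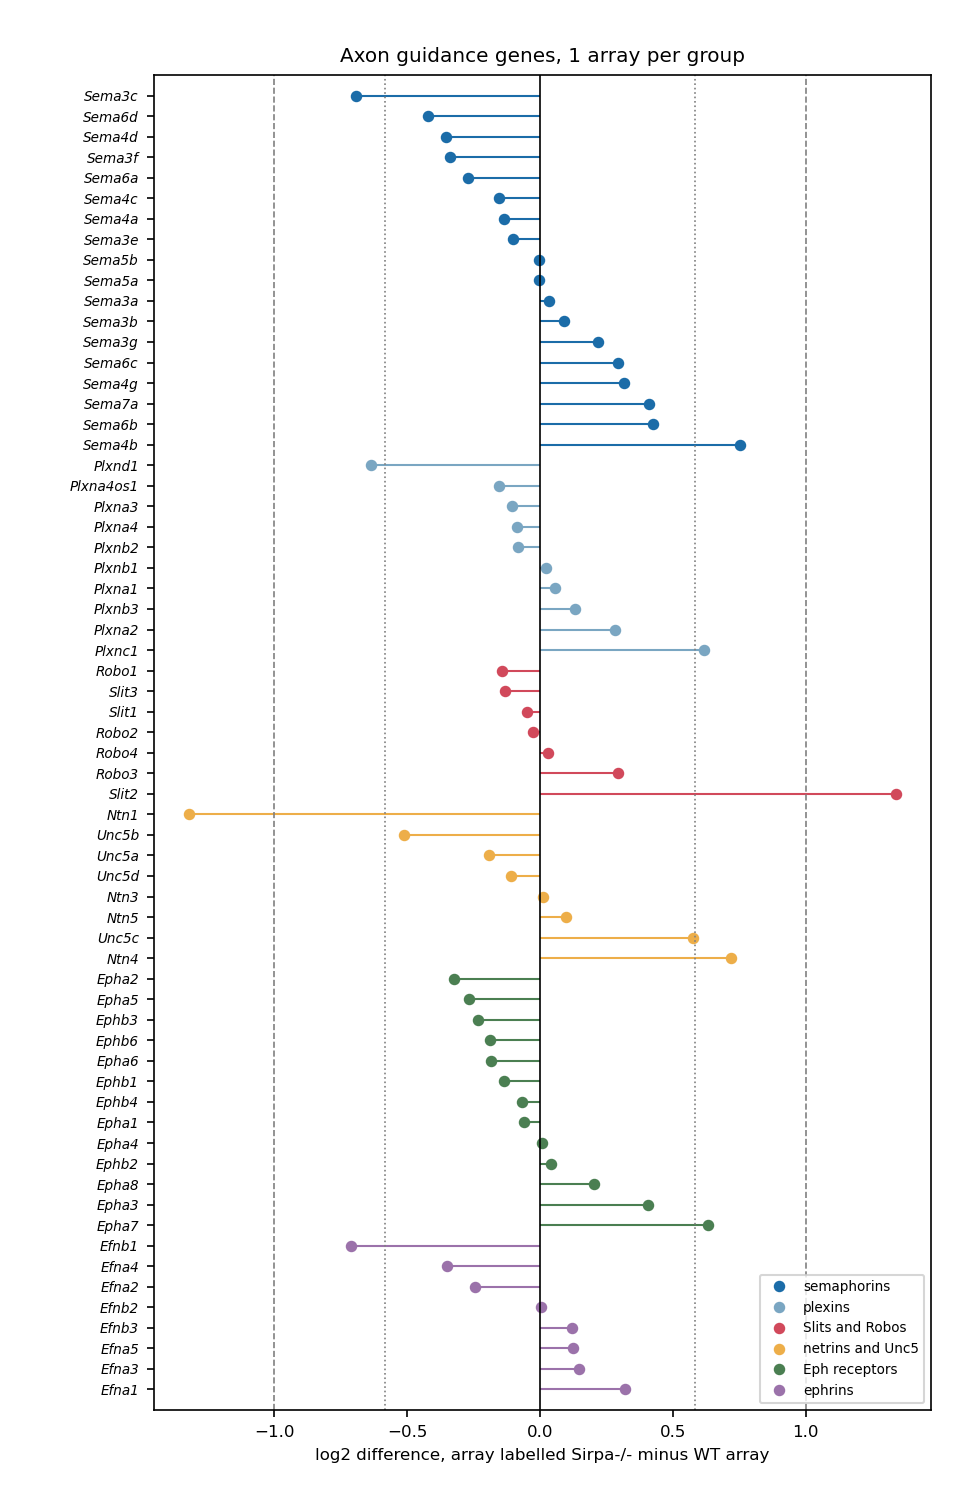
Log2 difference of each of the 64 measured axon guidance genes (array labelled Sirpa-/- minus WT array, 1 array each), grouped by family in colour. Dashed lines mark 2-fold and dotted lines 1.5-fold; Slit2 (1.34) and Ntn1 (-1.32) are the members outside the dashed lines.

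**Figure D2:**
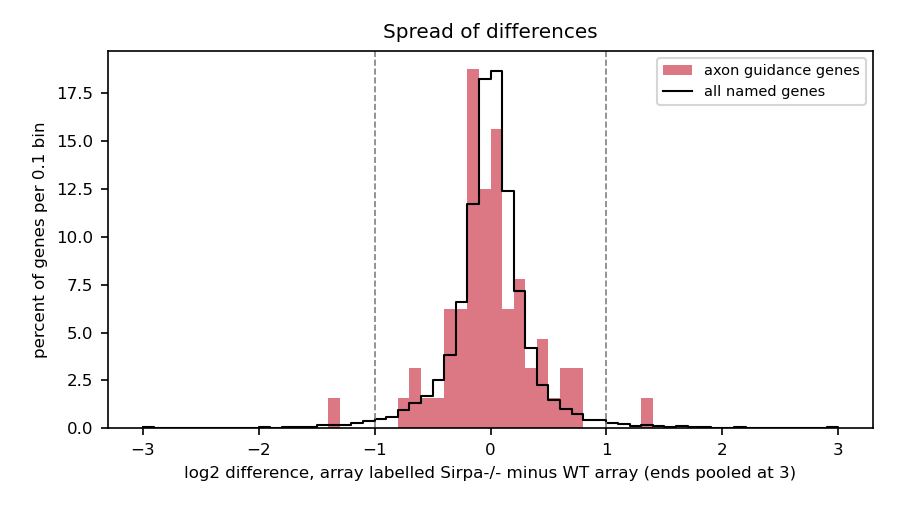
Percent of genes in each 0.1-wide bin of the log2 difference (array labelled Sirpa-/- minus WT array), as bars for the 64 axon guidance genes and as a line for all 18239 measured genes. Both are centred near 0, dashed lines mark 2-fold, and values beyond 3 are pooled in the end bins.

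The 9 members past 1.5-fold were, from the highest, Slit2, Sema4b, Ntn4, Epha7, Plxnc1, Plxnd1, Sema3c, Efnb1 and Ntn1. They came from all 6 families. Under other processing, members past 1.5-fold were counted among 26 named members only. With normexp there were 6 (Ntn4, Epha7 and Sema3c fell short), and with a stricter filter 7 (Slit2 and Sema3c were too dim). With the mean of a gene's probes there were 8, without Epha7 and Plxnd1 and with Sema3a at 0.83. Unc5c was not among the 26, and the mean of its probes (1.49-fold and 1.70-fold higher) would pass 1.5-fold too. Of 13 measured secreted ligands, 4 were past 1.5-fold, 2 higher (Slit2 and Ntn4) and 2 lower (Sema3c and Ntn1), with a class median of 0.01. That was 15.4% each way, against 4.35% of all genes higher and 5.27% lower. In the other classes, 0 of 6 GPI-anchored ligands and 2 of 14 transmembrane ligands (Sema4b and Efnb1) were past 1.5-fold. Among receptors it was 3 of 30 (Epha7, Plxnc1 and Plxnd1). The difference between these classes was not tested. Just short of 1.5-fold were Unc5c at 1.49-fold and Unc5b at 1.43-fold.

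**Figure D3:**
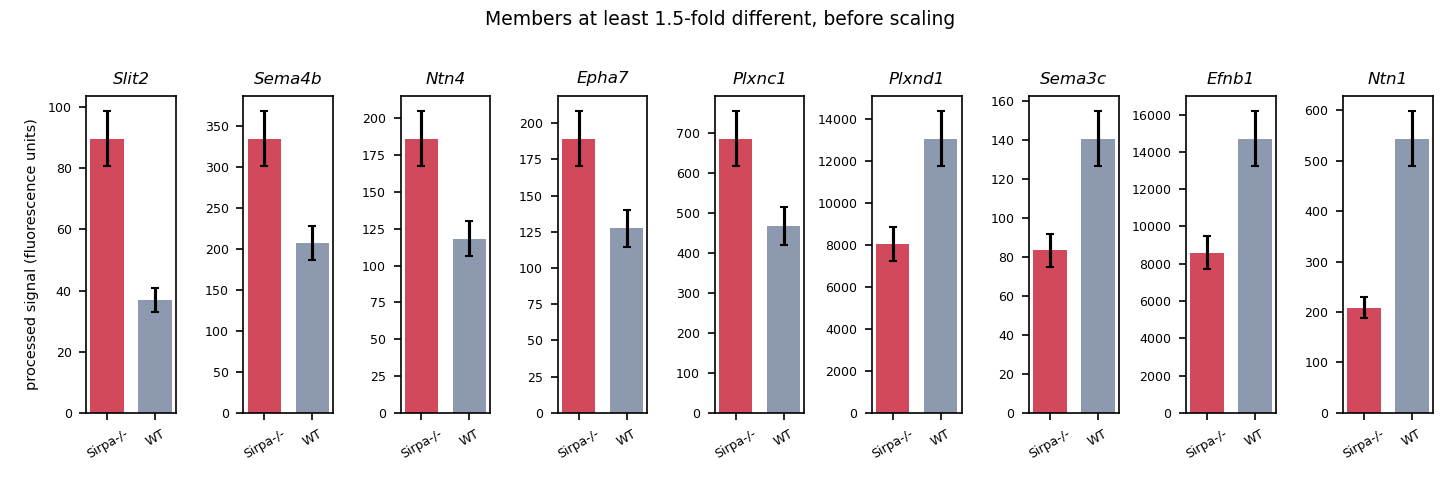
Processed signal before scaling of the 9 members at least 1.5-fold different, on the array labelled Sirpa-/- (left bar) and the WT array (right bar), each panel with its own axis from 0. Error bars are the scanner software's error of the spot, not a spread over replicates; in each panel the bars differ by more than both errors.

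Promoter windows are shown for those of the 9 that have a single start in the RefSeq table (GRCm38.p6), to let the genes that differed most be compared at their starts. Each window runs from 250 bases before to 50 bases after the start, written 5′ to 3′ on the gene's strand. Capitals mark GGGCGG, the GC box that Sp1-family factors bind, or its complement CCGCCC; the first 3 genes were higher and the last 3 lower on the array labelled Sirpa-/-.
Slit2, chr5:47982905-47983204, + strand: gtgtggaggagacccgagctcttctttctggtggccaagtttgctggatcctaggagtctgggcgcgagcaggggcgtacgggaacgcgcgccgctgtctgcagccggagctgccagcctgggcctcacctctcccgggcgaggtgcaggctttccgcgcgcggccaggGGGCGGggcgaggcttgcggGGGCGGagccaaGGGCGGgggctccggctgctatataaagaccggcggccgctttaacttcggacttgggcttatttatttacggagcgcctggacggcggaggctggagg
Ntn4, chr10:93640799-93641098, + strand: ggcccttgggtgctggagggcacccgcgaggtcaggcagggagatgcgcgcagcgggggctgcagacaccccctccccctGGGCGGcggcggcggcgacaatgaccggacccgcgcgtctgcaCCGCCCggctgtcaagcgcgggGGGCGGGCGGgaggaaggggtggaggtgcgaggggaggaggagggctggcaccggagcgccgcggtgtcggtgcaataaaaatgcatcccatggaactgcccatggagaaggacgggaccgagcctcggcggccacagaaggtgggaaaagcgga
Plxnc1, chr10:94944796-94945095, - strand: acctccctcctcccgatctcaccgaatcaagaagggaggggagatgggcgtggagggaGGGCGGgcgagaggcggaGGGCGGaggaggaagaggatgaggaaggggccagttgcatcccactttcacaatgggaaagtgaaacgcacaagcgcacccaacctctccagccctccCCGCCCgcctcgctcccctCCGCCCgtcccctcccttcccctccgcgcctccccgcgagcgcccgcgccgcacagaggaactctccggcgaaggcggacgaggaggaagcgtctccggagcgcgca
Plxnd1, chr6:115994956-115995255, - strand: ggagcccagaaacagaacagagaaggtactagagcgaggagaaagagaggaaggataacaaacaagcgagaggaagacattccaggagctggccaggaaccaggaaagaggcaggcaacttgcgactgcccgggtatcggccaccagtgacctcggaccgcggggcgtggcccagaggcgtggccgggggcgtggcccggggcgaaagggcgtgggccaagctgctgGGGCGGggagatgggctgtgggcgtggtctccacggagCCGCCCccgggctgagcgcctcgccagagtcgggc
Sema3c, chr5:17574566-17574865, + strand: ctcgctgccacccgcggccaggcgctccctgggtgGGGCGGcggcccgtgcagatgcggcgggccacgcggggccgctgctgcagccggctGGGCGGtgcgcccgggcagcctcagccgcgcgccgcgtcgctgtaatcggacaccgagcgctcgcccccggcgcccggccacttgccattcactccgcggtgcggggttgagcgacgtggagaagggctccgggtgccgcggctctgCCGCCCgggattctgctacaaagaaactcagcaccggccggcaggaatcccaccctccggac
Efnb1, chrX:99135811-99136110, + strand: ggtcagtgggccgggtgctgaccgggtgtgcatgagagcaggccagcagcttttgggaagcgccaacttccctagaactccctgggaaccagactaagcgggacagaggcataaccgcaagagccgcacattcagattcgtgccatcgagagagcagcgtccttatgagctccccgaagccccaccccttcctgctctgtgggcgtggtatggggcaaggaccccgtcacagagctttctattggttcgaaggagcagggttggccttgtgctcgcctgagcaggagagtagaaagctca

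The GC box occurred in 5 of these 6 windows, those of higher and of lower genes alike: 3 times in Slit2, 4 in Ntn4 (of which 2 overlap), 4 in Plxnc1, 2 in Plxnd1, 3 in Sema3c and 0 in Efnb1. G and C made up 68.0% of the Slit2 window, 75.7% of the Sema3c window and 59.7% of the Efnb1 window. Slit2 also held TATAAA, the TATA box, and Efnb1 held CCAAT on the other strand. Over the 58 members in the table (74 windows), 70.3% of windows held GGGCGG on either strand, against 51.9% of the 17900 windows of genes measured on both arrays and 35.7% of all 32851 windows. TATAAA was in 2.70% of member windows, against 10.7% of those of measured genes and 13.6% of all. Their median GC content was 64.2%, against 58.0% for measured genes and 52.7% for all windows. CCAAT (29.7%, against 37.6% of measured and 37.4% of all), the E-box CACGTG (6.76%, against 8.65% and 7.15%) and TTCNNNGAA, the letters of a STAT site (4.05%, against 7.52% and 8.30%), were searched on both strands too. These are matches of letters, and no binding was measured.

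Among the Slits, secreted ligands that repel axons and also act on the ureteric bud and the podocyte, Slit2 alone passed 1.5-fold. Its probe gave 89.70 ± 9.06 on the array labelled Sirpa-/- and 37.01 ± 3.96 on the WT array, 2.53-fold higher (log2 difference 1.34). Both signals are dim, in the range where one-position differences had an SD of 0.31, and with normexp background correction the difference was 0.75. Slit1 (labelled Sirpa-/- 93.25, WT 100.7, difference -0.05) and Slit3 (labelled Sirpa-/- 54.63, WT 62.46, difference -0.13, or 0.09 with normexp) lay close to 0.

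The Robo receptors, which bind Slits, differed little. Robo2, the podocyte receptor that inhibits nephrin-driven actin assembly, gave 16442 ± 1644 on the array labelled Sirpa-/- and 17484 ± 1748 on the WT array, a difference of -0.03. Over the processing alternatives the Robo2 value ranged between -0.03 and 0.01, and its other probe gave 0.05. Robo1 gave -0.14 (labelled Sirpa-/- 3960, WT 4561) and Robo4, the Robo of endothelial cells, 0.03 (labelled Sirpa-/- 16319, WT 16665). Robo3, known from commissural neurons, gave 0.29 at dim signals (labelled Sirpa-/- 21.94, WT 18.71). All 4 lay within 1.5-fold, as did 90.4% of all genes.

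Of the 14 listed effectors of Slit and Robo signalling, all were measured and 0 passed 1.5-fold in either direction, with a median of -0.04. Among all genes, 90.4% lay within 1.5-fold. Srgap1, a Robo-bound GTPase-activating protein, gave -0.06 (labelled Sirpa-/- 34480, WT 37515), and the adaptors Nck1 and Nck2, which also bind nephrin, gave -0.44 and 0.24.

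Among the 4 netrins, 1 was past 1.5-fold in each direction. Ntn1, netrin-1, a laminin-related guidance cue also known to limit kidney inflammation, gave 208.6 ± 20.9 on the array labelled Sirpa-/- and 544.2 ± 54.4 on the WT array, a difference of -1.32 (-1.06 with normexp). Its other probe was well above background on the WT array alone. It gave 3.978 ± 1.33 on the array labelled Sirpa-/- and 7.466 ± 1.62 on the WT array. The bound for that probe, 1.15-fold lower, leaves out these errors. Ntn4, netrin-4, a basement membrane protein that binds laminin, was 1.65-fold higher, with 186.2 ± 18.7 on the array labelled Sirpa-/- and 118.1 ± 11.9 on the WT array (difference 0.72, and 0.56, short of 1.5-fold, with normexp). Ntn3 (0.01) and Ntn5 (0.10) lay near 0 at signals under 100 on both arrays.

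The netrin receptors also split. Unc5b, the Unc5 receptor of vascular endothelium, gave 8789 ± 879 on the array labelled Sirpa-/- and 13089 ± 1309 on the WT array (difference -0.51). Unc5c gave 2160 ± 216 on the array labelled Sirpa-/- and 1513 ± 151 on the WT array (0.58), and its other probe went the same way at 0.77 (labelled Sirpa-/- 74.48, WT 45.62). Unc5a (labelled Sirpa-/- 1368, WT 1632) gave -0.19 and Unc5d, dim (labelled Sirpa-/- 16.47, WT 18.52), gave -0.11. None of the 4 reached 1.5-fold.

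Dcc, the attractive netrin receptor, is not caught by the symbol rule but belongs to the branch. Its probe gave 7418 on the array labelled Sirpa-/- and 21730 on the WT array, 2.81-fold lower (-1.49), a difference of the same direction as that of Ntn1. Neo1 (neogenin, which binds netrins and repulsive guidance molecules) gave 0.14 (labelled Sirpa-/- 4024, WT 3817). The 9 listed netrin effectors were all within 1.5-fold, as were 90.4% of all genes. Their median was 0.02, with the focal adhesion kinase Ptk2 at -0.32 and the exchange factor Trio at 0.02. Dcc and Ntn1 were thus lower on the array labelled Sirpa-/-, and the listed effectors were not past 1.5-fold. These are RNA signals, and netrin signalling itself was not measured.

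Of the 20 semaphorins, 18 were measured and 16 lay within 1.5-fold (88.9% of the 18, against 90.4% of all genes). Sema4b, a transmembrane semaphorin, had the highest difference, with 334.8 ± 33.5 on the array labelled Sirpa-/- and 207.2 ± 20.8 on the WT array (1.69-fold higher, 0.75). Sema3c, a secreted ligand of neuropilins with a part in heart and vessel development, had the lowest, with 83.40 ± 8.43 on the array labelled Sirpa-/- and 140.6 ± 14.1 on the WT array (1.62-fold lower, -0.69). With normexp the Sema3c value was -0.35. The second Sema3c probe was well above background on the array labelled Sirpa-/- alone, at 7.104 ± 1.52 against 6.342 ± 1.63 on the WT array. Its difference of 0.23 is smaller than its software error of 0.48, so no direction is read from it.

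Among the other secreted class 3 members, Sema3f, a Nrp2 ligand that repels vessels, gave 15415 ± 1542 on the array labelled Sirpa-/- and 20335 ± 2034 on the WT array (-0.34). Sema3g, a class 3 member known from podocytes and endothelium, gave 2214 ± 221 on the array labelled Sirpa-/- and 1984 ± 198 on the WT array (0.22). Sema3e, which binds Plxnd1 directly, gave -0.10 (labelled Sirpa-/- 2180, WT 2442), and Sema3b 0.09 (labelled Sirpa-/- 7055, WT 6925). These lay within 1.5-fold on both sides of 0.

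The probes of Sema3a, the founding class 3 semaphorin and a signal for podocyte shape changes, disagreed. The brighter one gave 40.30 ± 4.26 on the array labelled Sirpa-/- and 41.14 ± 4.43 on the WT array (0.03), and the dimmer one 27.09 ± 3.08 on the array labelled Sirpa-/- and 9.199 ± 1.85 on the WT array, 3.07-fold higher (1.62). Both probes name the same transcript accession and both are dim, so no direction is given for Sema3a. Sema3d, of the same class, was not well above background on either array (labelled Sirpa-/- 3.741, WT 3.903).

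Sema4d, Sema4a and Sema7a lay within 1.5-fold. Sema4d (CD100, a plexin-B1 and CD72 ligand of T cells and other leukocytes) gave 742.2 ± 74.2 on the array labelled Sirpa-/- and 990.6 ± 99.1 on the WT array (-0.35). Sema4a, a T cell costimulator, gave -0.13 (labelled Sirpa-/- 1795, WT 2056). Sema7a, a GPI-anchored ligand of plexin-C1 and of integrins, gave 11527 ± 1153 on the array labelled Sirpa-/- and 9057 ± 906 on the WT array (0.41). Of 9 T cell markers, 8 were above 0, with a median of 0.43. Of 9 measured macrophage and monocyte markers, 4 were above 0 and 5 below, with a median of -0.08. Whether these cells bear on the Sema4d value was not tested.

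The remaining semaphorins are transmembrane proteins. Sema5a (labelled Sirpa-/- 46268, WT 48379) and Sema5b (labelled Sirpa-/- 674.5, WT 705.4) each gave 0.00 after scaling. In class 6, which acts through class A plexins, Sema6a gave -0.27, Sema6b 0.43, Sema6c 0.30 and Sema6d -0.42 on 1 probe and 0.02 on the other. Sema4c gave -0.16 (labelled Sirpa-/- 20560, WT 23910) and Sema4g 0.32 at dim signals (labelled Sirpa-/- 16.52, WT 13.86). Sema4f was not well above background on either array.

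Among the plexins, the semaphorin receptors, 8 of 10 matches lay within 1.5-fold (80.0%, against 90.4% of all genes). Plxnc1, the Sema7a receptor, gave 685.7 ± 68.6 on the array labelled Sirpa-/- and 467.0 ± 46.7 on the WT array (1.53-fold higher, 0.62), and its other probe went the same way at 0.85 (labelled Sirpa-/- 27.11, WT 15.70). Sema7a, its ligand, was also above 0, at 0.41. Plxnd1, the receptor of vascular endothelium that restrains VEGF responses, gave 8062 ± 806 on the array labelled Sirpa-/- and 13083 ± 1308 on the WT array (1.55-fold lower, -0.64), and -0.36 on its other probe (labelled Sirpa-/- 701.5, WT 940.0). The mean of the Plxnd1 probes, -0.50, fell short of 1.5-fold.

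Plxnd1 and Unc5b, both known from endothelium, were below 0. For comparison, Robo4 gave 0.03. Of 12 endothelial markers, 11 lay within 1.5-fold and 8 were below 0 (median -0.08, range -0.34 to 0.64). Their summed signal, before scaling, was 343101 on the array labelled Sirpa-/- and 376217 on the WT array. The class A plexins, which pair with neuropilins, ranged from -0.11 (Plxna3) to 0.28 (Plxna2), with Plxna1 at 0.06 (labelled Sirpa-/- 398.0, WT 399.7) and Plxna4 at -0.09. The class B plexins ranged from -0.08 for Plxnb2 (labelled Sirpa-/- 15846, WT 17509), an epithelial and macrophage receptor, to 0.13 for Plxnb3, with Plxnb1, the Sema4d receptor, at 0.02. The antisense transcript Plxna4os1 gave -0.15 at dim signals (labelled Sirpa-/- 15.41, WT 17.90); one-colour array probes read 1 strand, so it is counted apart from Plxna4.

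The neuropilins, coreceptors of class 3 semaphorins and of VEGF, were both lower on the array labelled Sirpa-/- without reaching 1.5-fold: Nrp1 by 1.38-fold (labelled Sirpa-/- 6596, WT 9469, -0.46) and Nrp2 by 1.34-fold (labelled Sirpa-/- 3403, WT 4778, -0.43, and -0.35 on its other probe). Of 17 listed semaphorin and plexin effectors, 1 was at least 1.5-fold higher (5.88%, against 4.35% of all genes). Another was at least 1.5-fold lower (5.88%, against 5.27% of all genes), and the median was -0.04. Mical2, an enzyme that oxidises actin, gave 139.7 on the array labelled Sirpa-/- and 79.85 on the WT array (0.87). Dpysl3, which encodes the cytoskeletal protein CRMP4, gave 879.0 on the array labelled Sirpa-/- and 1579 on the WT array (-0.78, and -0.45 on its other probe).

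The ephrins, ligands that stay on the cell surface, had 7 of 8 members within 1.5-fold (87.5%, against 90.4% of all genes). Efnb1, ephrin-B1, which sits with nephrin at the slit diaphragm, was the exception: it gave 8602 ± 860 on the array labelled Sirpa-/- and 14719 ± 1472 on the WT array, 1.64-fold lower (-0.71, and -0.80 with normexp). It has 1 probe. Of 12 podocyte markers, 8 were above 0, 4 were below and none was 1.5-fold lower (median 0.09, lowest -0.30). Nephrin itself (Nphs1) gave 0.63, the highest value of the list. The summed signal of the list, before scaling, was 530081 on the array labelled Sirpa-/- and 523756 on the WT array.

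Efnb2, the arterial ephrin and partner of Ephb4, gave 0.00 (labelled Sirpa-/- 11474, WT 11960) and 0.08 on its other probe, with a sign that changed between processing alternatives, from -0.04 to 0.04. Efna1, which inflammatory cytokines induce in endothelium, gave 10833 ± 1083 on the array labelled Sirpa-/- and 9052 ± 905 on the WT array (0.32). The other ephrin-A ligands ranged from -0.35 for Efna4 (labelled Sirpa-/- 62.91, WT 83.65) to 0.15 for Efna3, whose second probe gave -0.16. Efnb3, best known from the nervous system, gave 0.12 at dim signals (labelled Sirpa-/- 56.35, WT 54.06).

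Of the 14 Eph receptors, tyrosine kinases that bind ephrins, 13 were measured. Within 1.5-fold were 12 (92.3% of the 13, against 90.4% of all genes). Epha7 gave 189.4 ± 19.0 on the array labelled Sirpa-/- and 127.5 ± 12.8 on the WT array (1.55-fold higher, 0.63), and its other probes went the same way, at 0.41 (labelled Sirpa-/- 113.8, WT 89.42) and 0.55 (labelled Sirpa-/- 54.59, WT 39.05). It was the one gene with 3 measured probes, all above 0, but it fell short of 1.5-fold with normexp (0.54) and with the mean of its probes (0.53). Epha10, an Eph without kinase activity, gave 5.600 ± 1.59 on the array labelled Sirpa-/- and 14.95 ± 2.18 on the WT array, where alone it was well above background. The bound for Epha10 was 2.31-fold lower, set against 6.21, the dimmest signal on the array labelled Sirpa-/- that still counted as well above background. That bound leaves out the errors of both signals.

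The other Eph receptors differed less. Epha2, an epithelial receptor of ephrin-A1, gave 2773 ± 277 on the array labelled Sirpa-/- and 3624 ± 362 on the WT array (-0.32), opposite in sign to Efna1. Ephb4, the venous partner of ephrin-B2, gave -0.07 on its brighter probe (labelled Sirpa-/- 3100, WT 3391), and its dimmer probe gave 0.10. Epha3 gave 0.41 (labelled Sirpa-/- 585.2, WT 460.9), Epha4 0.01, and both Epha5 probes -0.27. Of the 5 EphB receptors, the main partners of Efnb1 among them, 4 lay below 0 and all within a range of -0.23 (Ephb3, labelled Sirpa-/- 18687, WT 22950) to 0.04 (Ephb2, labelled Sirpa-/- 509.3, WT 516.7). Ephb6, which lacks kinase activity, gave -0.19 and 0.29 on its 2 probes. Ephb1 gave -0.14, Epha1 -0.06, Epha6 -0.19 and Epha8 0.20.

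Of 17 listed effectors of Eph and ephrin signalling, 3 were past 1.5-fold upward and 1 downward, judged from the array labelled Sirpa-/-. That was 17.6% upward, against 4.35% of all genes, and 5.88% downward, against 5.27%. The median of the list was -0.02. The exchange factors Vav2 (labelled Sirpa-/- 39.04, WT 25.15, 0.70) and Kalrn (labelled Sirpa-/- 220.1, WT 142.0, 0.69, but 0.18 on its other probe) and the Src-like adaptor Sla (labelled Sirpa-/- 313.8, WT 211.3, 0.63) were higher. Grip2, a PDZ protein that binds ephrin-B tails, was lower (labelled Sirpa-/- 80.62, WT 158.7, -0.91, but -0.29 on its other probe). Both Vav2 signals are dim. The protease Adam10, which sheds ephrins, gave -0.04.

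Other guidance ligands and receptors, from a list of pathway genes that are not members, also differed in both directions. Across all 76 listed pathway genes, 74 were measured, 1 was at least 2-fold higher (1.35%, against 1.56% of all genes) and 3 at least 2-fold lower (4.05%, against 1.67%), with a median of -0.04. The total past 2-fold was 1 with normexp and 2 with a stricter filter, in place of 4. Besides Dcc, the genes past 2-fold were Ntng2 (labelled Sirpa-/- 29.87, WT 12.67, 1.30), Ntng1 (labelled Sirpa-/- 8.467, WT 19.16, -1.12) and Flrt3 (labelled Sirpa-/- 339.7, WT 750.1, -1.08). Ntng1 and Ntng2 encode GPI-anchored netrin-G proteins, which do not bind Dcc, and both signals are dim.

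Flrt3, a membrane ligand of Unc5 receptors, gave -0.82 on its other probe, while its relative Flrt2 gave 0.34 on one probe and 1.26 on the other. Dag1, the dystroglycan gene, whose product binds Slits and laminins and is a podocyte surface protein, gave 3284 on the array labelled Sirpa-/- and 5780 on the WT array (-0.75). Chl1, a neural adhesion molecule and semaphorin coreceptor, gave -0.68 at dim signals (labelled Sirpa-/- 8.318, WT 13.91).

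Over the 13 members with more than 1 measured probe, the first 2 probes differed by a median of 0.22, against 0.17 over 4561 such genes in all. They had the same sign in 7 of the 13 members, and in 2878 of the 4561 genes. The gap passed 1 log2 unit in 1 member, Sema3a (7.69%), and in 4.30% of all such genes. Of the 9 members past 1.5-fold, Epha7, Plxnc1 and Plxnd1 had a further measured probe, and each went the same way; Slit2, Sema4b, Ntn4 and Efnb1 rest on 1 probe, and Ntn1 and Sema3c on 1 probe measured on both arrays.

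**Figure D4:**
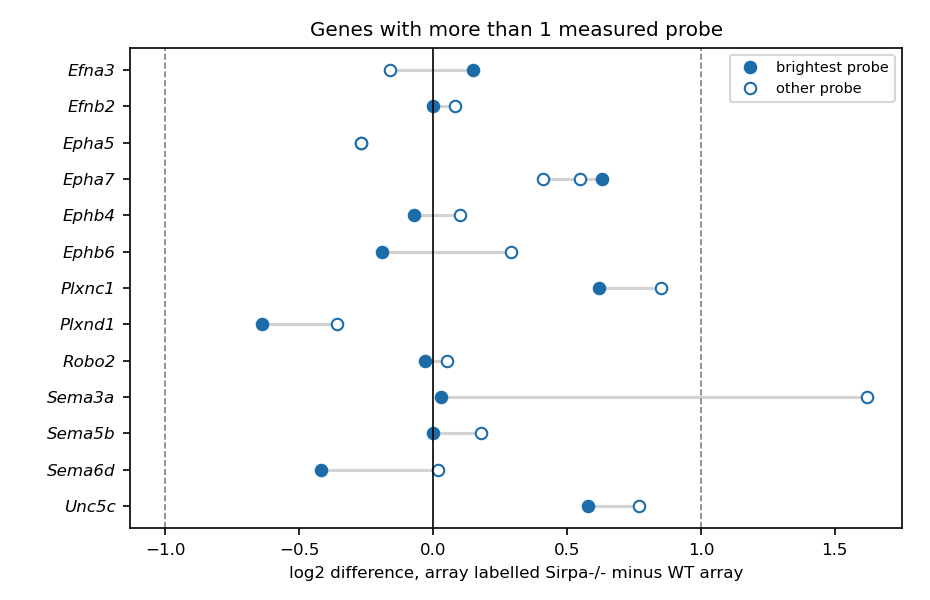
Log2 difference (array labelled Sirpa-/- minus WT array) of each probe of the 13 members with more than 1 measured probe, with the brightest probe filled and others open. Epha7, Plxnc1 and Unc5c have all probes above 0 and Plxnd1 both below, while the probes of Sema3a lie 1.59 apart; dashed lines mark 2-fold.

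**Figure D5:**
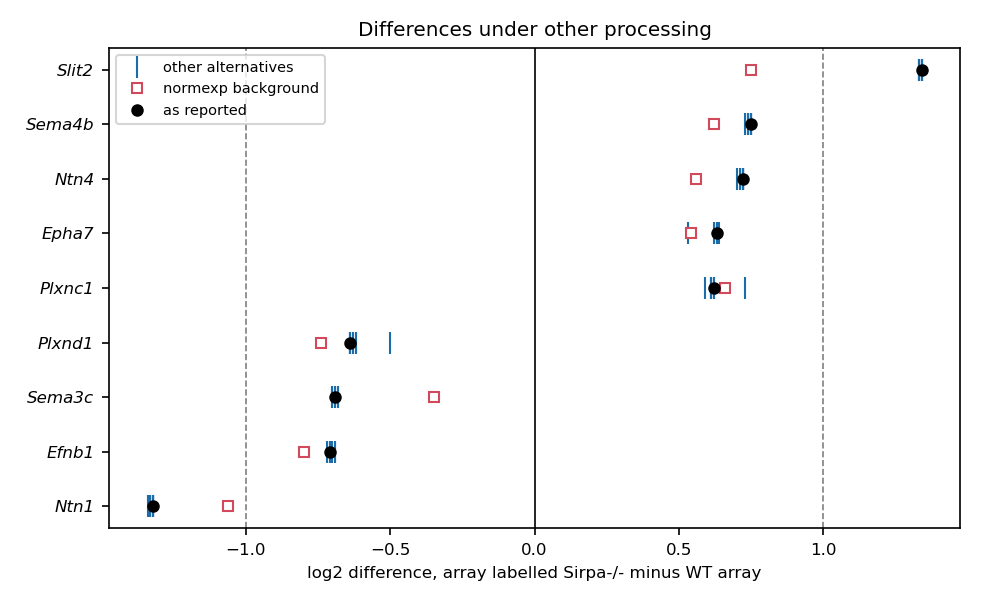
Log2 difference (array labelled Sirpa-/- minus WT array) of the 9 members at least 1.5-fold different, as reported (dots), with normexp background correction (squares) and under the other processing alternatives (ticks). No sign changes, and normexp moves Slit2 to 0.75 and Sema3c to -0.35; dashed lines mark 2-fold.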

How the data were processed

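Per the labels' protocols, glomeruli were collected with magnetic beads and Cy3-labelled cRNA was made from 0.25 µg of RNA. The authors deposited fluorescence intensity per spot, extracted with Agilent Feature Extraction 11.0.1.1 per the file headers (9.1 per the submitters' processing notes; not settled), background-subtracted and not normalized between arrays. Spot flags and control types (other values) were used as deposited. The authors' deposited table of log2 values, with equal column medians of 6.51, served as an alternative. The sources used here do not give its steps, and its columns carry the sample names. Each column correlated more with the array of the same label (r = 0.9938 for Sirpa-/- and 0.9945 for WT) than with the other array (0.9864 and 0.9860).

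Unmarked gene spots of a probe were averaged on the log2 scale and each array was scaled to its 75th percentile. Both arrays lay on slide 1, and 0 gene spots were saturated; 86.7% of gene probes on the array labelled Sirpa-/- and 85.3% on the WT array were well above background. A probe counted as measured when over 50% of its spots were so on both arrays. Of 28681 probes with a RefSeq accession, 27231 matched a gene of GRCm38.p6; probes were designed on an older build, so the only coordinates given are those of RefSeq's promoter windows. The measured probe with the highest mean signal stood for a gene. A bound divides the measured signal by a floor for the other array, its dimmest signal well above background (6.21 for Sirpa-/-, 6.72 for WT), or by the probe's own signal there if larger. Bounds leave out the scanner software's error. Only 1 array per group limits precision, and no test was possible.

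Named were members past 1.5-fold, those on 1 array only, those whose probes differ by over 1 log2 unit, and a fixed list with kidney or immune roles; pathway genes past 1.5-fold were named too. Members and lists were chosen with earlier results of these data known. Alternatives were quantile, median and loess (span 0.3) scaling, normexp (limma 3.58.1, offset 50), the authors' table, other dim-probe filters and the mean of a gene's probes. The scripts (Python 3.11.15, R 4.3.3) were tested on simulated data.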

Additional observations from a re-analysis of the deposited data

How the results depend on the processing

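Of 204 alternative values for 26 named members, 189 stayed within the technical spread of the reported value and 15 moved beyond it. The members past 2-fold, Slit2 and Ntn1, kept their sign. Some named members near 0 did not: Robo2 changed sign under 3 of 8 alternatives, Ephb4 under 1 of 8 and Slit3 under 1 of 7. Efnb2, reported as 0.00, ranged from -0.04 to 0.04. With normexp, 0 members were at least 2-fold higher (Slit2 at 0.75) and Ntn1 stayed past 2-fold (-1.06), and the medians were 0.05 for plexins, 0.05 for Slits and Robos and 0.15 for netrins and Unc5 (reported as -0.03, -0.03 and -0.05). With a stricter filter, which asks for a signal above the median of gene probes on both arrays and left 45 members, 0 members were at least 2-fold higher because Slit2 was no longer measured, the medians were -0.10 for semaphorins and -0.19 for netrins and Unc5, and 2 pathway genes were past 2-fold. With no filter, 2 members were at least 2-fold lower (Ntn1 and Epha10). With the mean of a gene's probes, the Eph receptor median was 0.01, reported as -0.07. At 1.5-fold, 5 members were higher and 4 lower. With normexp 1 pathway gene was past 2-fold. The normexp correction used the median spot signal, since the files hold no mean signal, and the cause of its shifts was not tested. Leaving out Plxna4os1 and Unc5cl was added after the data were seen and gave a median of 0.00. Adding probes by a gene name column was not run, since the files hold none. No paired analysis was possible because each group has 1 array. Dim signals limit Slit2, Sema3a, Sema3c, Epha10 and the netrin-G genes.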
